A study of Mus musculus with 13 samples.

Results

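The alternative macrophage activation genes are 10 genes that are used as readouts of the macrophage state driven by the cytokines IL-4 and IL-13. They are Il4ra, Arg1, Retnla, Chil3, Clec10a, Clec7a, Mgl2, Ccl24, Ccl17 and Pdcd1lg2. Each was found by its symbol among 18193 genes on the array, all 10 had a probe set, and all 10 passed the filter on low values among 15384 genes tested. The probe set with the highest mean over the 13 arrays stands for a gene. Lyz2, the lysozyme made in large amounts by macrophages and other myeloid cells, was the reference for macrophage RNA.

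The RNA came from cells sorted on CD31 from SKOV3ip1 tumors, a human ovarian cancer line labeled with luciferase and grown in the peritoneal cavity of female athymic nude mice (NCr-nu), which lack a thymus and most T cells. The control group (n = 5) stands for tumors without B20, for which the methods describe a control IgG. The sensitive (n = 4) and resistant (n = 4) groups both received B20, a monoclonal antibody against VEGF-A given intraperitoneally, and were told apart by whether the bioluminescence of the tumor responded. The paper describes collection at the maximal response and, later, at tumor progression. Response therefore goes with the time of collection and the length of B20 treatment, and these cannot be told apart here. The labels give no time for any array. No source used here gives the age of these mice or says whether tumors were pooled. The labels call the arrays of a group biological replicates and do not tie them to named animals, so a p-value covers the spread between these arrays. The hybridization used mouse probes, which are meant for RNA of the host cells of the tumor. Whether RNA of the human tumor cells added to the values was not tested.

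Alternative activation begins when IL-4 or IL-13 binds a receptor that contains the IL-4 receptor alpha chain. Janus kinases then phosphorylate STAT6, which enters the nucleus and binds palindromic sites near its target genes. Macrophages in this state are known for arginine breakdown, for secreted chitinase-like and resistin-like proteins, for C-type lectins on the surface and for chemokines that draw eosinophils and T helper cells. Several of these genes have other sources too. Arg1 is also induced by hypoxia and lactate, Chil3 is made by neutrophils and inflammatory monocytes, and Clec10a, Mgl2, Ccl17 and Pdcd1lg2 are also expressed by dendritic cells.

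The promoters are shown because the members are classed together as IL-4 targets. RefSeq windows of 300 bases (GRCm38.p6, 250 before to 50 after the start of transcription) were at hand for 7 of the 10 members, namely Il4ra, Retnla, Chil3, Clec7a, Mgl2, Ccl17 and Pdcd1lg2, and not for Arg1, Clec10a and Ccl24. They were searched for TTC followed after any 4 bases by GAA, the palindrome with the spacing that STAT6 favors, which is found alike on both strands. Clec7a had 2 windows, whose starts differ by a few bases and which share a single match, so the 7 members had 8 windows. The match occurred in 4 of the 7 members and in 5 of their 8 windows, against 6.95% of 32851 promoter windows of this length. The windows of Retnla at chr16:48842359-48842658 (+ strand) and of Ccl17 at chr8:94810203-94810502 (+ strand) are printed whole, 5′ to 3′, with the match in capitals. Below them stand the match and its flanks in Clec7a (the window chr6:129472730-129473029, - strand) and in Pdcd1lg2 (window chr19:29410669-29410968, + strand).
Retnla: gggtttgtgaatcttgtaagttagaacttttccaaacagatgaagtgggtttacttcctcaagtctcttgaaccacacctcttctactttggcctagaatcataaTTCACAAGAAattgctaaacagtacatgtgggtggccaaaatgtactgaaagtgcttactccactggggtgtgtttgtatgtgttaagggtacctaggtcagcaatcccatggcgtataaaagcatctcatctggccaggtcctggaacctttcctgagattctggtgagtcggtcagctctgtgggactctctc
Ccl17: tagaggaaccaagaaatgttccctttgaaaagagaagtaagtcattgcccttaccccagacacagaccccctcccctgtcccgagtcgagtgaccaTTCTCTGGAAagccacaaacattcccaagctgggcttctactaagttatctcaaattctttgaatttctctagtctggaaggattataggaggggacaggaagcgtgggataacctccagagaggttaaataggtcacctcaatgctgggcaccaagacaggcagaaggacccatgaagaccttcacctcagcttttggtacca
Clec7a: catttcagttTTCTTCAGAAgttacagcct
Pdcd1lg2: catgctccagTTCCTCAGAAaccattctgg

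Counted from the start of transcription, the match lay at -145 to -136 in Retnla, -154 to -145 in Ccl17, -131 to -122 in Clec7a and -82 to -73 in Pdcd1lg2. TTC followed after any 3 bases by GAA, the spacing that other STAT proteins also bind, occurred in the windows of Ccl17 and Chil3 and in 8.3% of all windows. Retnla and Ccl17, printed whole, were also the members whose resistant and sensitive values did not overlap, in opposite directions, as given below. For Clec7a and Pdcd1lg2, which hold the same match, these groups overlapped. A link between the match and the values was not tested. A match of letters does not show that a factor was bound in these cells.

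The arrays differed in the cell types they carried, and these values stand beside every result that follows. The median of 14 macrophage reference genes was 4.47, 4.82 and 4.84 on sensitive arrays 1, 2 and 3, against 7.77 to 9.86 on the other 10 arrays. Pecam1, which encodes CD31, was at 6.56 on control arrays 4 and 5 and at 2.33 to 3.41 on the other arrays, where the median of 12 endothelial genes was also no higher than 4.22. Endothelial markers were thus high on 2 of the 13 arrays labeled as endothelial cells. Mesothelial medians were 6.53 and 7.26 on sensitive arrays 1 and 2, 6.55 and 5.34 on resistant arrays 2 and 3 and at most 3.76 on the others. The B cell median was 8.55 on sensitive array 3, 5.48 on resistant array 3 and at most 5.10 on the others. Sensitive arrays 1 and 2 were also the dimmest as deposited, each with a trimmed mean intensity of 19.4 against 23.8 to 33.5 on the others. Sensitive array 4 had the widest gap between 3′ and 5′ probe sets of Actb and Gapdh, 5.75 against 2.15 to 4.11, a measure of RNA quality. In sorted bulk RNA, fewer macrophages and less of a transcript per macrophage cannot be told apart.

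Resistant and sensitive tumors were compared to find what differs once B20 no longer holds the tumor back, a contrast that also holds the time of collection. Here 8 of the 10 members had higher means and 2 lower means on the resistant arrays, against 42.1% and 57.9% of all genes tested. The median log2 fold change was 0.73 for the members and -0.07 over all genes. It rests on single arrays and on which members are counted. It was 1.52 without sensitive array 4, 1.11 without resistant array 2, 0.46 without resistant array 3 and -0.45 without sensitive arrays 1, 2 and 3. Over Arg1, Chil3, Clec7a and Clec10a, the 4 members with an intensity over 100 on at least 50% of the arrays, it was 2.39. That filter kept Clec10a (mean 5.96 over all arrays), which was low on sensitive arrays 1, 2 and 3, and dropped Il4ra (mean 6.57). Arg1, Retnla, Clec7a and Clec10a had the widest differences, from 15.9-fold to 4.96-fold. Limma called 0 members at an adjusted p under 0.05, and 0% of all genes. At an unadjusted p under 0.05 these 4 members were higher, as were 4.54% of all genes, and no member was lower, as were 2.53%. The methods' t-test was run here on the same values and genes, without the random variance model and filters of the study. It called 0 members and 0 of 15384 genes after adjustment, and 3 members and 529 genes before it. Resistant and sensitive values did not overlap for Retnla, which was higher, and for Ccl17, which was lower, against 0.975% and 0.897% of all genes.

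**Figure D1:**
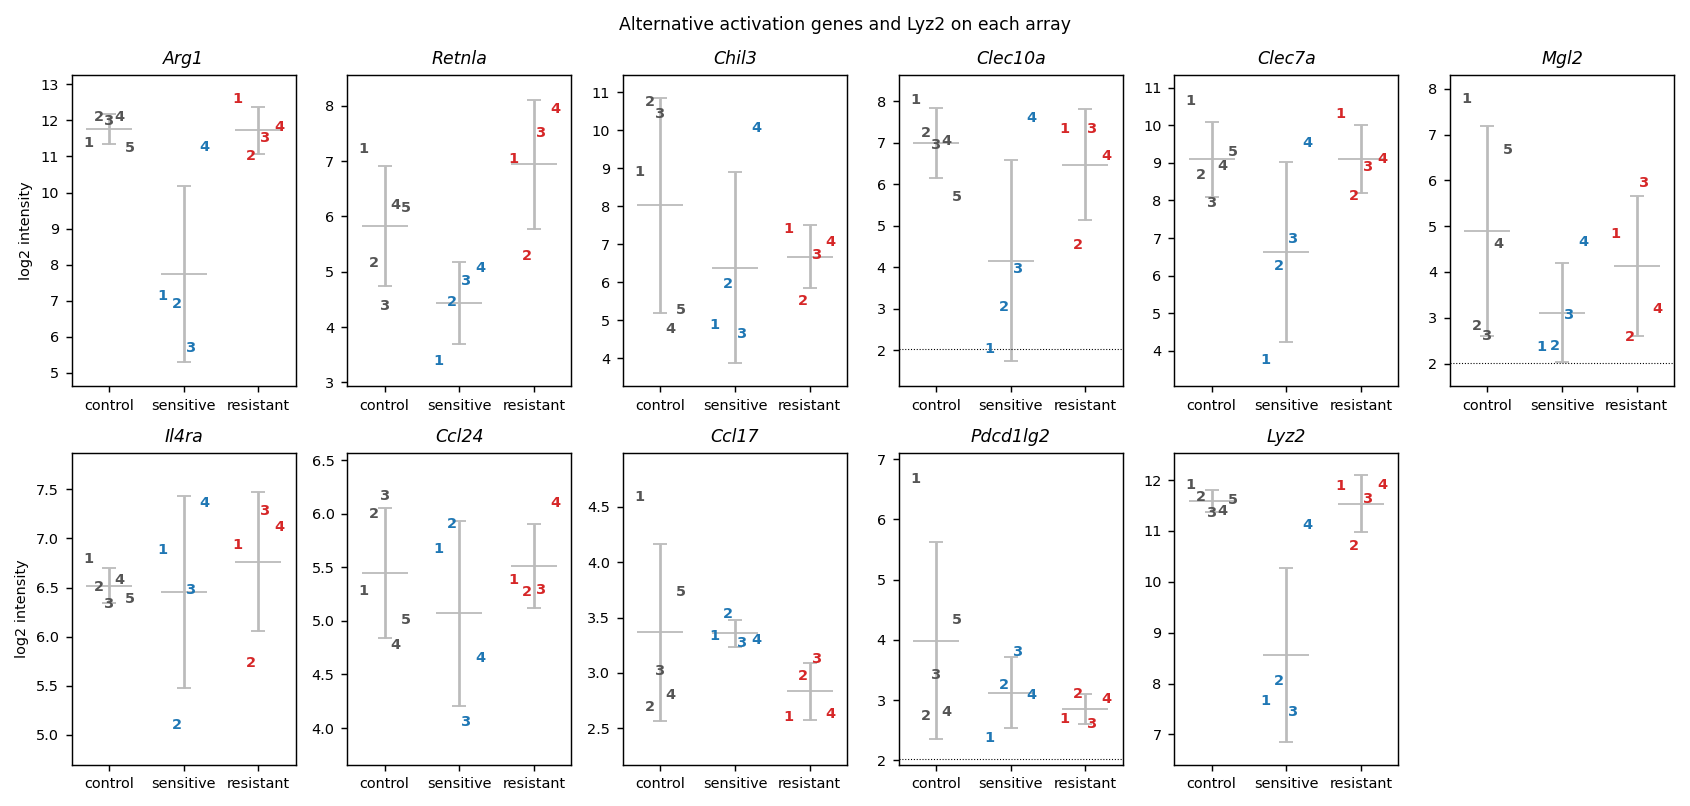
Log2 values of the alternative activation genes and of Lyz2 on each array, by group, with a separate vertical scale for each gene because probe sets cannot be compared in level. Numbers are replicates, bars are the mean ± SD of a group (n = 5, 4 and 4) and a dotted line, where in range, is the floor of 2.015. Sensitive arrays 1, 2 and 3 lie below the rest for Arg1, Clec7a and Lyz2, while Il4ra and Ccl24 overlap across groups.

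Il4ra, the receptor chain that binds IL-4, had group means of 6.52, 6.45 and 6.77 in the control, sensitive and resistant groups. Its log2 values were 6.79, 6.51, 6.33, 6.58 and 6.39 on the control arrays, 6.88, 5.10, 6.47 and 7.36 on the sensitive arrays and 6.94, 5.73, 7.29 and 7.12 on the resistant arrays. The lowest sensitive and the lowest resistant array were both replicate 2, and the 3 groups overlapped. The resistant minus sensitive log2 fold change was 0.31 (SE 0.46, 95% interval -0.67 to 1.29). Its 2 dimmer probe sets gave 0.31 and -0.53, so the probe sets did not share a direction.

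Arg1, the enzyme that turns arginine into ornithine and urea, had the widest group difference of the members. It was at 11.37, 12.11, 11.998, 12.11 and 11.22 on the control arrays and at 12.58, 11.02, 11.51 and 11.81 on the resistant arrays. On the sensitive arrays it was at 7.13, 6.90, 5.67 and 11.26. Sensitive arrays 1, 2 and 3 lay over 3 log2 units below every other array, and sensitive array 4 lay inside the range of the control and resistant arrays. The means were 11.76 ± 0.43 (SD, n = 5), 7.74 ± 2.43 (SD, n = 4) and 11.73 ± 0.65 (SD, n = 4) in the control, sensitive and resistant groups. Resistant minus sensitive was 3.99 (SE 0.86, 15.9-fold, limma adjusted p = 0.307). Sensitive minus control was -4.02 (SE 0.82, 16.3-fold lower, limma adjusted p = 0.18). The resistant and control groups differed by -0.03 (SE 0.82, 95% interval -1.78 to 1.72).

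Retnla, a secreted resistin-like protein also called FIZZ1, was the member with all resistant values above all sensitive values. It was at 7.04, 5.28, 7.52 and 7.94 on the resistant arrays and at 3.38, 4.45, 4.83 and 5.06 on the sensitive arrays. The closest pair was resistant array 2 and sensitive array 4, 0.22 apart. The control arrays, at 7.21, 5.15, 4.39, 6.21 and 6.15, spanned both groups. The means were 5.82 ± 1.08 (SD, n = 5), 4.43 ± 0.74 (SD, n = 4) and 6.94 ± 1.17 (SD, n = 4) in the control, sensitive and resistant groups. Resistant minus sensitive was 2.51 (SE 0.65, 5.7-fold, limma adjusted p = 0.433), and it was 2.72 without sensitive array 4 and 1.88 without sensitive arrays 1, 2 and 3. Resistant minus control was 1.12 (SE 0.62, limma adjusted p = 1), the widest positive difference of a member in that comparison.

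Chil3, the secreted chitinase-like protein Ym1, varied more within the control group than between groups. The control arrays were at 8.91, 10.74, 10.42, 4.76 and 5.27, the sensitive arrays at 4.86, 5.96, 4.64 and 10.05 and the resistant arrays at 7.40, 5.50, 6.72 and 7.05. Control arrays 4 and 5, the arrays with endothelial markers, were at the level of sensitive arrays 1, 2 and 3, although their macrophage reference medians were 9.14 and 8.89. The resistant and sensitive means differed by 0.29 (SE 1.39). A probe set shared by Chil3 and its near copy Chil4 gave 0.08, with a low on the same 5 arrays and on resistant array 2, all of them between 3.16 and 4.40. The probe set of Chil4 alone was at the floor on all arrays but sensitive array 1 (2.13), and how the shared probe set divides between the copies was not tested. The median of 9 neutrophil genes ran from 3.31 to 5.29 and was 5.29, 4.50 and 4.17 on control arrays 1, 2 and 3 and 3.69 and 5.18 on control arrays 4 and 5. Its part in the Chil3 values was not tested.

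The C-type lectins bind sugars on microbes and on host glycoproteins. Clec10a, the galactose-type lectin CD301a, was at 8.04, 7.23, 6.94, 7.05 and 5.70 on the control arrays, at the floor, 3.05, 3.96 and 7.60 on the sensitive arrays and at 7.34, 4.52, 7.34 and 6.67 on the resistant arrays. Clec7a, the beta-glucan receptor Dectin-1, was at 10.66, 8.67, 7.94, 8.91 and 9.28, at 3.75, 6.27, 6.97 and 9.54 and at 10.29, 8.13, 8.89 and 9.11 in the same order. Both were low on sensitive arrays 1, 2 and 3 and near the top of the control range on sensitive array 4. The difference of resistant minus sensitive was 2.31 (SE 0.99, limma adjusted p = 0.68) for Clec10a and 2.47 (SE 0.94, limma adjusted p = 0.609) for Clec7a. Sensitive minus control was -2.84 (SE 0.94) and -2.46 (SE 0.89).

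Mgl2, the second galactose-type lectin gene of the mouse (CD301b), followed a different order from its neighbor Clec10a. It was at 7.77, 2.82, 2.61, 4.62 and 6.66 on the control arrays, at 2.36, 2.39, 3.06 and 4.65 on the sensitive arrays and at 4.82, 2.57, 5.93 and 3.18 on the resistant arrays. Control arrays 2 and 3 were as low as sensitive arrays 1, 2 and 3, although Clec10a was at 7.23 and 6.94 there. Between resistant and sensitive arrays it differed by 1.01 (SE 1.08) and the groups overlapped.

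The remaining members encode signals to other cells. Ccl24, eotaxin-2, which draws eosinophils, was at 5.28, 5.999, 6.17, 4.78 and 5.01 on the control arrays, 5.67, 5.90, 4.06 and 4.66 on the sensitive arrays and 5.39, 5.27, 5.29 and 6.10 on the resistant arrays. It did not separate the groups, and it was not low on sensitive arrays 1 and 2. The resistant and sensitive means differed by 0.44 (SE 0.45, 95% interval -0.53 to 1.41).

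Ccl17, which draws T cells that carry CCR4, was at 4.59, 2.69, 3.01, 2.80 and 3.74 on the control arrays. It was at 3.34, 3.53, 3.27 and 3.30 on the sensitive arrays and at 2.60, 2.98, 3.13 and 2.63 on the resistant arrays. Every resistant value lay below every sensitive value, by 0.14 at the closest pair, and the values lay within 2 log2 units of the floor except on control array 1. Resistant minus sensitive was -0.52 (SE 0.35, limma adjusted p = 0.786). Pdcd1lg2, the PD-1 ligand PD-L2, was at 6.67, 2.73, 3.41, 2.81 and 4.32 on the control arrays, 2.36, 3.25, 3.80 and 3.08 on the sensitive arrays and 2.68, 3.10, 2.61 and 3.02 on the resistant arrays. It stood out on control array 1 alone, and resistant minus sensitive was -0.27 (SE 0.67).

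Control array 1 held the highest value of 5 members, Clec10a, Clec7a, Mgl2, Ccl17 and Pdcd1lg2. The integrin Itgax, the dendritic cell and macrophage marker CD11c, was also highest there, at 8.39 against 3.06 to 8.01 on the other arrays. The median of 11 dendritic cell genes was 4.40 on this array and 3.23 to 4.88 on the others, so the whole list did not stand apart. At the other end, sensitive arrays 1, 2 and 3 were among the 3 lowest arrays for 7, 6 and 5 of the 10 members.

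Sensitive tumors were set against control tumors to find what differs under B20 while the tumor still responds. All 10 members had lower means on the sensitive arrays, against 41.6% of all genes lower and 58.4% higher, with a median log2 fold change of -1.52 against 0.09 over all genes. The median was -0.16 without sensitive arrays 1, 2 and 3 and -2.65 over the 4 members that passed the intensity filter given above. Again limma called 0 members and 0% of all genes at an adjusted p under 0.05. The 4 members lower at an unadjusted p under 0.05, against 6.57% of all genes, were Arg1, Clec10a, Clec7a and Retnla (-1.39, SE 0.62). The methods' t-test called 0 members and 0 of 15384 genes after adjustment, and 2 members and 1371 genes before it. No member had groups that did not overlap, as 1.59% of all genes did in this direction, and sensitive array 4 lay within the control range for every member except Il4ra and Ccl24. Resistant minus sensitive and sensitive minus control share the sensitive arrays, so their opposite signs are not independent of each other.

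Sensitive array 4 decided whether any member was called. Without it, limma called 428 genes between resistant and sensitive arrays, 2.47% of all genes being higher and 0.312% lower, and Arg1 rose by 5.17 (adjusted p = 4.8e-05), Clec10a by 3.46 (0.0188) and Clec7a by 3.44 (0.0291). Lyz2 rose by 3.82 (adjusted p = 4.8e-05) in the same fit. Against the control arrays the changes were -5.20 for Arg1, -3.98 for Clec10a and -3.43 for Clec7a, all called, where 3.52% of all genes were called lower and 1% higher. With sensitive arrays 1, 2 and 3 left out in place of array 4, limma called 0% of all genes higher and 0.013% lower between resistant and sensitive arrays, and 0.026% higher between sensitive and control arrays. There resistant minus sensitive was 0.48 for Arg1, -1.13 for Clec10a and -0.43 for Clec7a, with 1 sensitive array that is assumed to vary like the other groups. Over all alternatives the adjusted p ran from 4.8e-05 to 0.975 for Arg1, from 0.0188 to 0.975 for Clec10a and from 0.0291 to 0.976 for Clec7a.

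**Figure D2:**
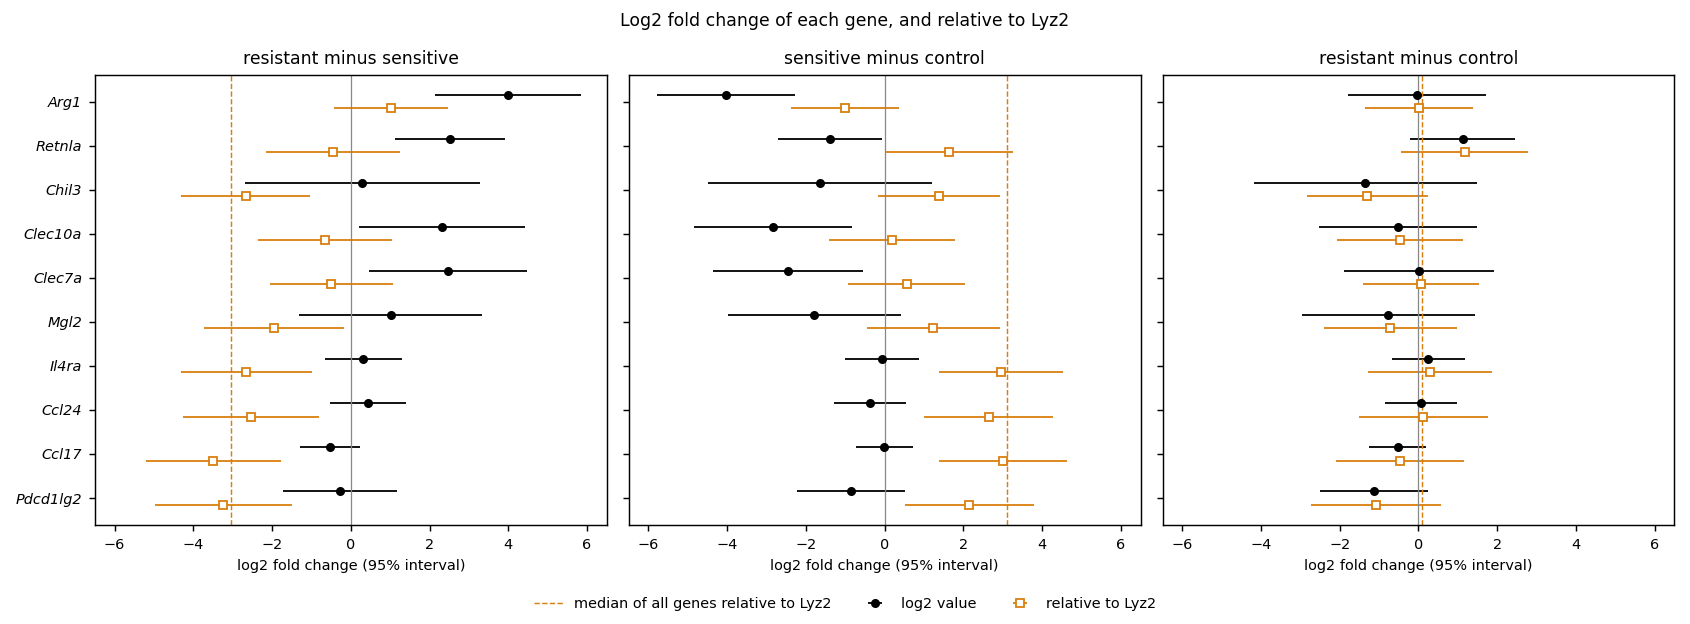
Log2 fold change of each member in the 3 comparisons, as its log2 value (filled circles) and relative to Lyz2 (open squares). Points are the estimate and bars the 95% interval of limma over 13 arrays. A dashed line marks the median of all genes relative to Lyz2. Of the log2 values, Arg1 lies farthest from 0 between resistant and sensitive arrays (3.99), and every interval of resistant minus control crosses 0.

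Resistant and control arrays, which ask whether resistant tumors return to the state without B20, differed least. The median of the members was -0.28, with 4 positive and 6 negative, against 0.03, 54.3% positive and 45.7% negative over all genes. The median was 0.13 without resistant array 2 and -0.09 without control array 1. Limma called 0 members and 0% of all genes, and at an unadjusted p under 0.05 it called 0 members and 2.52% of all genes. The methods' t-test called 0 members before and after adjustment, beside 1043 of 15384 genes before it and 0 after it. Before adjustment it called more genes here than between resistant and sensitive arrays (529), so the order of the comparisons over all genes depends on the test. Besides Retnla, the widest differences were -1.35 for Chil3 (SE 1.32) and -1.14 for Pdcd1lg2 (SE 0.64). The interval of Pdcd1lg2 reached from -2.51 to 0.24, and the intervals of Arg1, Clec7a and Clec10a reached beyond 1 log2 unit in both directions, so 2-fold differences in either direction lie within them. The fit pools the spread of the 3 groups, so the sensitive arrays enter these intervals too. For Arg1 the SD was 2.43 in the sensitive group, against 0.43 in the control and 0.65 in the resistant group. The intervals thus do not measure the spread of the resistant and control arrays alone.

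Lyz2 was at 11.90, 11.67, 11.36, 11.40 and 11.61 on the control arrays, 7.65, 8.05, 7.45 and 11.11 on the sensitive arrays and 11.88, 10.71, 11.63 and 11.90 on the resistant arrays. Its pattern was that of Arg1, with sensitive arrays 1, 2 and 3 low. Resistant minus sensitive was 2.97 (SE 0.63, 7.81-fold, limma adjusted p = 0.307). Each member was therefore also compared as its log2 value minus that of Lyz2 on the same array, a within-array difference that shows unequal change and not which of the 2 genes changed.

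Relative to Lyz2, Arg1 spanned 2.49 log2 units over the 13 arrays, against 6.91 for its log2 value. The span narrowed in the same way for Clec10a (from 6.02 to 2.70) and Clec7a (from 6.91 to 3.44), and by less for Mgl2, Chil3 and Retnla. It widened for Il4ra (from 2.27 to 4.45), Ccl24 (from 2.11 to 4.64), Ccl17 (from 1.99 to 5.10) and Pdcd1lg2 (from 4.31 to 5.56). The span narrowed for 6 of 10 members and for 2.74% of all genes. The share among macrophage genes alone was not counted.

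On this scale Arg1 was at -0.53, 0.44, 0.64, 0.71 and -0.38 on the control arrays, -0.52, -1.15, -1.77 and 0.15 on the sensitive arrays and 0.70, 0.31, -0.12 and -0.09 on the resistant arrays. Sensitive arrays 2 and 3 were the lowest, and the groups overlapped. Arg1 was the only member with a positive resistant minus sensitive difference relative to Lyz2, 1.03 (SE 0.74, limma adjusted p = 0.167), a sign shared by 0.293% of all genes. It was also the only one with a negative sensitive minus control difference, -1.003 (SE 0.70, limma adjusted p = 0.155), as for 0.267% of all genes. These signs were more frequent among macrophage genes. The first was that of 6 of 13 macrophage reference genes and 5 of 10 resident peritoneal macrophage genes. The second was that of 4 and 3 of them. Over the alternatives the adjusted p-value of the resistant minus sensitive difference of Arg1 ran from 0.00698, without sensitive array 4, to 1. Without sensitive arrays 1, 2 and 3 this difference was 0.06, and with Lyz2 as a covariate in place of subtraction it was 0.15 (SE 0.63).

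The other members split by how closely they followed Lyz2. Retnla (-0.45, SE 0.87), Clec7a (-0.49, SE 0.80) and Clec10a (-0.65, SE 0.86, with sensitive array 1 at its floor) had resistant minus sensitive differences within their error. Mgl2 (-1.95), Ccl24 (-2.53), Il4ra (-2.65), Chil3 (-2.67), Pdcd1lg2 (-3.24) and Ccl17 (-3.49) were called lower by limma, with adjusted p-values from 0.000409 to 0.0325. The standard errors of the members in this fit were alike, from 0.74 (Arg1) to 0.91 (Mgl2). Yet the SD of Chil3 was 2.80 on the control and 0.30 on the resistant arrays. These p-values thus rest on a spread shared over genes and do not measure that of each gene. In a linear model without empirical Bayes the call of Chil3 was lost (adjusted p = 0.0688). The call of Mgl2 was lost in 9 of 21 alternatives, among them leaving out sensitive array 1 (adjusted p = 0.0504), sensitive array 3 (0.14), resistant array 2 (0.0885) or resistant array 4 (0.14) and taking the mean of the macrophage reference genes in place of Lyz2 (0.109), over a range of 0.0155 to 1. That count of 6 stands against 96.7% of all genes called lower and a median of -3.04 over all genes, since subtracting Lyz2 moves every gene by the same amount on an array. Chil3 and Il4ra also had no overlap between the groups, against 18.2% of all genes in that direction. Chil3 relative to Lyz2 was at -4.48, -5.21, -4.91 and -4.85 on the resistant arrays and at -2.79, -2.09, -2.80 and -1.07 on the sensitive arrays, while the control arrays, at -2.99, -0.93, -0.94, -6.63 and -6.34, lay on both sides. With Lyz2 as a covariate limma called 0 members and 0% of all genes (1 member, Chil3, and 2.94% at an unadjusted p under 0.05), and Chil3 differed by -4.10 (SE 1.84, adjusted p = 1).

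**Figure D3:**
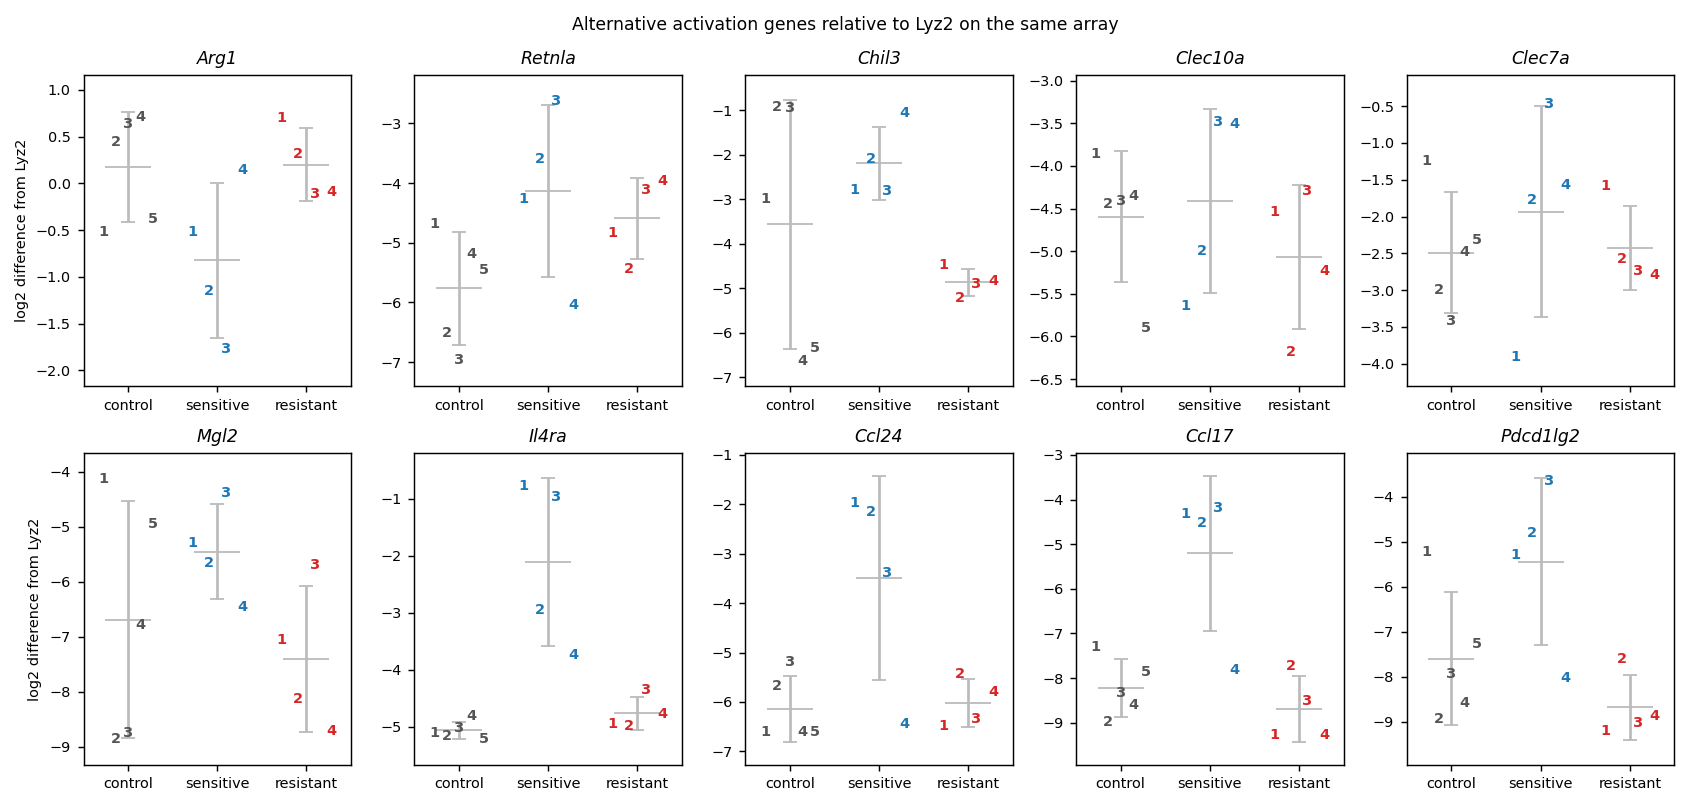
Log2 value of each member minus that of Lyz2 on the same array, by group, with numbers for replicates, bars for the mean ± SD (n = 5, 4 and 4) and a vertical scale of its own for each gene. For Chil3 and Il4ra all resistant arrays lie below all sensitive arrays, and for Ccl24, Ccl17 and Pdcd1lg2 sensitive array 4 lies with the control and resistant arrays.

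Between sensitive and control arrays, Il4ra (2.95), Ccl17 (3.01), Ccl24 (2.65) and Pdcd1lg2 (2.16) were called higher relative to Lyz2, against 96.5% of all genes and a median of 3.11. The call of Pdcd1lg2 (adjusted p = 0.0111) was lost without control array 2 (0.0535), without sensitive array 3 (0.099) and with the mean of the macrophage reference genes in place of Lyz2 (0.0738), over a range of 0.000195 to 1. This call was also lost in a linear model without empirical Bayes (adjusted p = 0.0517). Il4ra was the member without overlap between these groups, against 44.7% of all genes. Retnla relative to Lyz2 was at -4.27, -3.60, -2.62 and -6.05 on the sensitive arrays and at -4.69, -6.52, -6.97, -5.19 and -5.46 on the control arrays. Sensitive arrays 1, 2 and 3 lay above every control array and sensitive array 4 among them. The difference was 1.63 (SE 0.83, limma adjusted p = 0.0501), and it was 2.27 (adjusted p = 0.000855) without sensitive array 4, 1.90 (0.0402) without control array 1 and -0.29 without the other sensitive arrays. Between resistant and control arrays limma called 0 members and 0% of all genes relative to Lyz2, 0 members and 0.345% of all genes had an unadjusted p under 0.05, and the median of the members was -0.22.

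Across the 13 arrays the log2 value of Arg1 correlated with that of Lyz2 at r = 0.976 and rho = 0.73, Clec10a at r = 0.896 and rho = 0.696 and Clec7a at r = 0.861 and rho = 0.765. These values describe arrays that fall into separate groups. Over the 10 arrays without sensitive arrays 1, 2 and 3, r was 0.503 for Arg1, 0.597 for Clec10a and 0.599 for Clec7a. Retnla kept most of its correlation, with r = 0.708 over 13 and 0.683 over 10 arrays. Chil3 (0.515 and 0.128) and Mgl2 (0.539 and 0.441) had lower values over 13 arrays. Il4ra went from 0.409 over 13 to 0.51 over 10 arrays, where it was at the level of Arg1, and Ccl24, Ccl17 and Pdcd1lg2 had r between -0.151 and 0.215 over 13 arrays. The arrays share their normalization, and probe sets near the floor vary little.

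**Figure D4:**
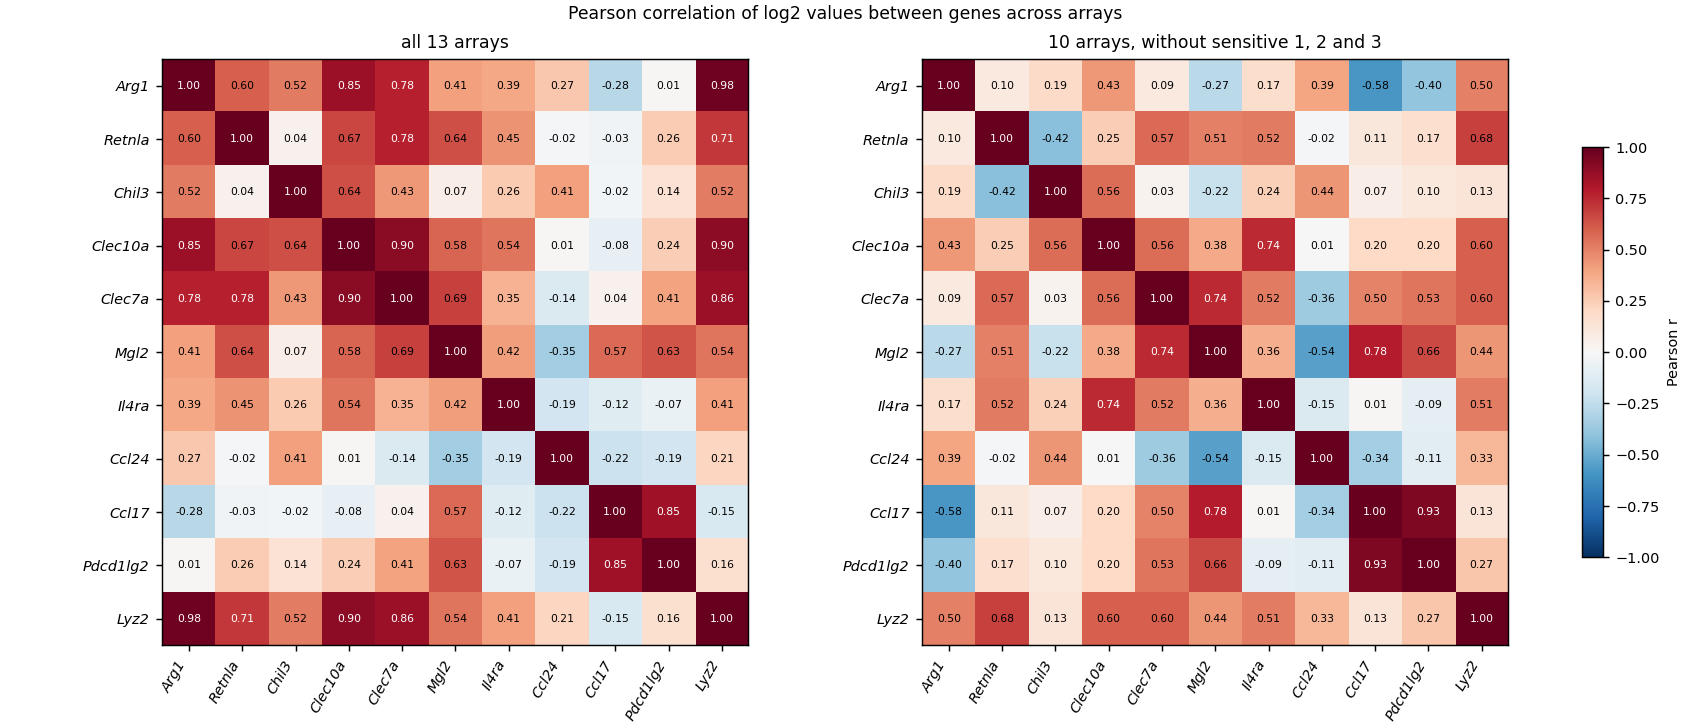
Pearson correlation of log2 values between each pair of members and Lyz2, over all 13 arrays (left) and over the 10 arrays without sensitive arrays 1, 2 and 3 (right), with the color from -1 to 1. The block of Arg1, Clec10a, Clec7a and Lyz2 at left pales at right, where Arg1 and Lyz2 are at 0.50. The pair Ccl17 and Pdcd1lg2 is at 0.85 and 0.93, with control array 1, the highest for both genes, in each set.

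Ccl17 and Pdcd1lg2 formed the pair of members with r = 0.846 over 13 and 0.932 over 10 arrays, and both genes were highest on control arrays 1 and 5. Both sets of arrays hold control array 1, at 4.59 for Ccl17 and 6.67 for Pdcd1lg2, and control array 5, at 3.74 and 4.32. The other arrays were at most 3.53 and 3.80, so r leans on these control arrays. It was not computed without them. Among all genes tested, those most like Arg1 over 13 arrays were F10, coagulation factor X, and Clec4d, a C-type lectin of myeloid cells, both at r = 0.978. Over 10 arrays these were 0.776 and 0.456. Clec10a was most like Clec4a3 (0.973 over 13 and 0.918 over 10 arrays) and Havcr2, the receptor TIM-3 (0.972 and 0.915). Chil3 was most like Ms4a6c (0.93 and 0.91), and Mgl2 was most like Slamf8 (0.972 and 0.966) and the interferon-gamma-induced chemokine Cxcl9 (0.916 and 0.933). Clec7a was most like Mospd2 (0.961 and 0.774) and the macrophage gene Mpeg1 (0.956 and 0.855). The single closest gene thus differed from member to member, while Il12rb1 was among the 3 closest of both Ccl17 (0.81 over 13 arrays) and Pdcd1lg2 (0.916). Lyz2 was among the 3 closest only for Arg1.

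The rest of the IL-4 and IL-13 pathway was described from a list of 19 genes, of which 18 were tested. Il4 lay between the floor and 2.28 and Il13 between 2.29 and 2.74, so neither cytokine was well above the floor on any array. The list had a resistant minus sensitive median of 0.11, with 13 positive and 5 negative. Limma called 0 of the 18. At an unadjusted p under 0.05, Il13ra1, the second chain of the receptor shared by both cytokines, was higher by 1.45 (SE 0.57), and Ppargc1b, a coactivator of oxidative metabolism, was lower by 0.88 on the log2 scale (-0.88, SE 0.31). The groups did not overlap for Ppargc1b, as for 0.897% of all genes in this direction. Its closest pair nearly met, with sensitive array 4 at 3.92 and resistant array 1 at 3.90. Il13ra1 was at 3.54, 6.36, 3.76 and 5.93 on the sensitive arrays and at 5.79 to 6.58 on the resistant arrays. Stat6 differed by 0.99 (SE 0.73) and was at 3.44 and 4.49 on sensitive arrays 1 and 2, against 5.72 to 7.48 on the other arrays.

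A list of 20 other alternative activation genes, 18 of them tested, had a median of 0.78 between resistant and sensitive arrays, with 13 positive, 0 called and 6 higher at an unadjusted p under 0.05. Alox15, a lipoxygenase induced by IL-4 and also a gene of resident peritoneal macrophages, differed by 3.85 (SE 0.61, limma adjusted p = 0.0669). It was at 7.12, 7.58, 7.29 and 7.07 on the resistant arrays and at 2.57, 3.93, 2.99 and 4.18 on the sensitive arrays, and among the control arrays only control array 1, at 7.11, reached the resistant range. The scavenger receptor Msr1 differed by 3.46 (SE 0.97) and fibronectin, Fn1, by 1.81 (SE 0.59). Both were lowest on sensitive arrays 1, 2 and 3. Ccl22, the chemokine that shares the receptor CCR4 with Ccl17, differed by -0.38 (SE 0.39).

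The classical activation list, 15 genes tested, had a resistant minus sensitive median of 0.56, with 11 positive, 0 called and 0 at an unadjusted p under 0.05. Its smallest p-values belonged to Il6 (1.16, SE 0.55), Tnf (1.31, SE 0.65) and Il12a (-0.37, SE 0.20). The 14 macrophage reference genes had a median of 2.75, with 14 positive and 13 of them higher at an unadjusted p under 0.05. The 10 resident peritoneal macrophage genes had a median of 2.58, with 10 positive. Beside these, the median of the 10 members was 0.73, or 2.39 over the 4 members that passed the intensity filter given above. The other lists were not filtered in this way, so the 2.39 cannot be ranked among them. Against the control arrays, the sensitive medians were -1.03, -0.66 and -2.68 for the other alternative, classical and reference lists, beside -1.52 for the members. Eosinophil and mast cell genes, 7 of them tested, had medians of 2.14 to 3.32 on all arrays, near the floor.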

How the data were processed

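The log2 values were deposited by the authors as 1 table of 45101 probe sets by 13 arrays (Affymetrix mouse arrays per the labels). Base 2 was inferred from their range (0.461 to 12.999), since no source gives it. The labels name MAS5, without a version, whereas the methods describe Illumina bead chips and BRB-ArrayTools. Arrays were quantile normalized, because their linear means after 2% trimming, 19.4 to 33.5, differed by over 1.5-fold. Values under the 30th percentile (2.015) were set to it, which understates differences of dim genes. Of the probe sets, 34958 had 1 gene symbol, and 932 with several and 64 controls were left out. Genes above the floor on at least 4 arrays were tested with limma 3.58.1 in R 4.3.3 (lmFit, eBayes with trend, 3 groups, 10 residual degrees of freedom, two-sided, Benjamini-Hochberg over 15384 genes, called at an adjusted p under 0.05). The fit was repeated on values minus Lyz2, where Lyz2's own spread enters every gene. The fit on log2 values was tested on simulated data with independent genes and the same spread in every group. The fit relative to Lyz2 was not simulated. Members and lists were chosen with earlier results of these data known. Genes named are all members, at most 3 of smallest p from each other list, and the 3 genes most like each member, of which some are printed. Other genes named were chosen after their values were seen. Alternatives covered normalization, floor, filter, probe set, reference, variance model, test, block and left-out arrays. The number of arrays limits the precision.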

Additional observations from a re-analysis of the deposited data

Results flagged for a closer look

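Of 63 groups of arrays examined, 4 held an array whose gap to its nearest neighbor, as a share of the whole range of the group, exceeded Dixon's limit, and chance gives about 1 in 20. Ccl24 was at 6.10 on resistant array 4, with the next highest resistant array at 5.39 (ratio 0.861). Lyz2 was at 11.11 on sensitive array 4, with the next at 8.05 (ratio 0.835). Relative to Lyz2, Ccl17 was at -7.82 on sensitive array 4, with the next at -4.52 (ratio 0.907), and this value holds the same Lyz2 measurement. Clec10a relative to Lyz2 was at -5.91 on control array 5, with the next at -4.44 (ratio 0.715).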

How the results depend on the processing

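Of 1809 values under 27 alternative settings, 1661 counted as unchanged. For single genes this means the same direction and side of the threshold, and for counts a change within 1.5-fold. For medians of the members it means a shift under their SD within groups (0.912, or 0.616 relative to Lyz2). A median could thus change sign and still count, as from -0.28 to 0.13 for resistant minus control without resistant array 2. Leaving out single arrays gave 0 to 428 genes and 0 to 3 members called between resistant and sensitive arrays, 0 to 696 genes and 0 to 3 members between sensitive and control arrays, the highest each without sensitive array 4, and 0 to 4 genes relative to Lyz2 between resistant and control arrays. Without sensitive arrays 1, 2 and 3, resistant minus sensitive gave 2 genes called and a median of the members of -0.45 (Chil3 -3.38, Clec10a -1.13, Clec7a -0.43, Mgl2 -0.52, Il4ra -0.60), and sensitive minus control gave 4 genes and a median of -0.16 (Chil3 2.03, Clec10a 0.61, Clec7a 0.44, Il4ra 0.84). Relative to Lyz2 that setting called 0 genes and 0 members, with medians of -0.87 (Retnla 1.46, Ccl24 0.44) and 0.32 (Retnla -0.29, Ccl24 -0.32, Pdcd1lg2 -0.43). With Lyz2 as a covariate, 0 genes and 0 members were called, with medians of -0.70 (Retnla 1.15, Ccl24 0.62) and 0.30 (Retnla -0.006, Ccl24 -0.56, Pdcd1lg2 -0.67). An intensity over 100 on at least 50% of the arrays left 4 members, called 2 and 3 genes and moved the medians to 2.39 and -2.65, since the other members, among them Il4ra, drop out. With the arrays of the compared groups alone, 2 genes were called between resistant and sensitive arrays.

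Small differences changed sign. With the mean of the macrophage reference genes as reference, Clec10a was -0.14 (sensitive minus control), and Arg1 -0.081 and Clec7a -0.039 (resistant minus control). The most variable probe set of Il4ra gave 0.40 (sensitive minus control). As deposited, Ccl24 was -0.015 (resistant minus control). Without control arrays 4 and 5, Ccl24 was -0.31 and, relative to Lyz2, -0.19 (resistant minus control), and Chil3 -0.57 and Clec10a -0.17 relative to Lyz2 (sensitive minus control). Leaving out single arrays, resistant minus control ran from -0.31 to 0.21 for Arg1, -0.13 to 0.25 for Ccl24, -0.85 to 0.12 for Clec10a, -0.38 to 0.40 for Clec7a and -0.18 to 0.22 for Lyz2, and relative to Lyz2 from -0.15 to 0.16 for Arg1, -0.074 to 0.36 for Ccl24 and -0.21 to 0.38 for Clec7a. Sensitive minus control ran from -0.18 to 0.30 for Ccl17, -0.37 to 0.39 for Il4ra and, relative to Lyz2, -0.14 to 0.59 for Clec10a. Resistant minus sensitive ran from -0.29 to 1.51 for Chil3, -0.14 to 0.66 for Il4ra and, relative to Lyz2, -1.09 to 0.052 for Retnla. The cause of these changes was not tested.

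The replicate numbers do not pair the arrays: of 12 same-numbered pairs, 4 correlated over 0.1 (range -0.43 to 0.53). With the replicate number as a block, Ccl17 was 0.085 (sensitive minus control), Ccl24 -0.045 (resistant minus control), and relative to Lyz2 Clec10a -0.14 (sensitive minus control) and Arg1 -0.12 (resistant minus control), with 1 gene called between resistant and control arrays relative to Lyz2. A linear model without empirical Bayes, chosen after seeing the data, called 5 members in each comparison with the sensitive arrays relative to Lyz2. It called Arg1 (adjusted p = 0.0444) and not Chil3 (0.0688) or Mgl2 (0.121) between resistant and sensitive arrays.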
